A study of Mus musculus with 20 samples.

Results

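The 7 genes Meis1, Meis2, Meis3, Pbx2, Pbx3, Pbx4, and Pknox1 encode homeodomain proteins that bind DNA together with HOX proteins. Their histone marks were read from 12 lists of ChIP-Seq peaks, for H3K27ac, H3K4me1, and H3K4me3 in mouse Lin- bone marrow cells of 4 genotypes. A peak belonged to a gene when it lay in the gene body of the GENCODE annotation or within 50 kb of it, with each gene taken apart. Of 591292 peaks in the 12 lists, 823 lay in these 7 windows. All mice were on a C57BL/6 background, carried floxed Ep300 alleles, and were given poly(I:C), which induces the interferon-responsive Mx1-Cre. WT mice were Ep300fl/fl without Cre, Ep300Δ/Δ mice were Mx1-Cre;Ep300fl/fl, Tet2-/- mice were Ep300fl/fl;Tet2-/-, and Ep300Δ/ΔTet2-/- mice were Mx1-Cre;Ep300fl/fl;Tet2-/-. The study's methods give the mice as young adults when poly(I:C) was given, with experiments a few weeks later unless another time is stated, and state no other time for ChIP-Seq. The number of mice behind a library is not given in the sources used here. Cre was present only in the mice that lost Ep300, so the presence of Cre and the loss of Ep300 cannot be told apart. Each genotype had 1 library per mark, from Lin- cells of over 80% purity, without a replicate. Every difference given here is therefore between 2 libraries, without a test.

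MEIS, PBX, and PKNOX proteins belong to the TALE class of homeodomain proteins, named for a loop of extra residues in the homeodomain. PBX proteins form pairs with MEIS or PKNOX and also with HOX proteins, and MEIS1 acts with HOXA9 and PBX3 in stem and progenitor cells and in leukemia. p300, the product of Ep300, acetylates histones, and TET2 oxidizes 5-methylcytosine. H3K27ac marks active promoters and enhancers, H3K4me1 marks enhancers whether active or not, and H3K4me3 marks promoters. In Lin- cells, a mixture of progenitors, fewer cells of a type and less mark per cell cannot be told apart.

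With Ep300 deleted, more H3K27ac peaks were listed at Meis1 in both backgrounds, while the lists as a whole held fewer. The regions gained at Meis1 lay around its start, deep in its introns, and near or beyond the end of the gene. The sequences of the 3 intronic regions outside promoters that were listed with Ep300 deleted in both backgrounds, of the intronic H3K27ac region of Pbx3 that was absent from WT, and of the 200 bases upstream of the RefSeq start of Meis1 are shown because H3K27ac was listed there with Ep300 deleted and not in WT. Each of the first 4 is 201 bases of the plus strand of GRCm38 (mm10), centered on the summit of the strongest H3K27ac peak of the region in the Ep300Δ/ΔTet2-/- list. All 4 lie in introns. The last is on the minus strand, the strand of Meis1, and overlaps no exon. Capitals mark matches to 6 motifs, searched on both strands: the MEIS and PKNOX core TGACAG, the PBX-HOX motif TGATTNAT, the PBX-PKNOX motif TGATTGAC, the GATA motif AGATAA, the ETS motif CAGGAAG, and the RUNX motif TGTGGT. The PBX-HOX and PBX-PKNOX motifs share their first letters TGATT.
Meis1 intron, chr11:18957730-18957930: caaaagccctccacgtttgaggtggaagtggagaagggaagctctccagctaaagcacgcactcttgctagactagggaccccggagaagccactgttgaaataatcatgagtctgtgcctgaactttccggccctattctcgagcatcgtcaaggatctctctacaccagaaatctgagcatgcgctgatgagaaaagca
Meis1 intron, chr11:18963620-18963820: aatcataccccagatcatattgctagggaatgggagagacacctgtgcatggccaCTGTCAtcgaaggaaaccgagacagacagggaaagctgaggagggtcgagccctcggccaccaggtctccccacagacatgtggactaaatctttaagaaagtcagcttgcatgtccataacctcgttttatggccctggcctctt
Meis1 intron, chr11:18970359-18970559: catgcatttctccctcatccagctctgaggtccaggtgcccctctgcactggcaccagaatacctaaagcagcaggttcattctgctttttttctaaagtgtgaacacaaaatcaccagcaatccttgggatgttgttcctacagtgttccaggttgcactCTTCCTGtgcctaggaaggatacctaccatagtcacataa
Pbx3 intron, chr2:34360128-34360328: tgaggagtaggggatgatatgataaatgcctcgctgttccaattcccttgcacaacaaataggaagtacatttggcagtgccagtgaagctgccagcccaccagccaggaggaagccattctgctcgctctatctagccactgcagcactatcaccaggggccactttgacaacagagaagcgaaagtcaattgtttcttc
Meis1 upstream, chr11:19019020-19019219: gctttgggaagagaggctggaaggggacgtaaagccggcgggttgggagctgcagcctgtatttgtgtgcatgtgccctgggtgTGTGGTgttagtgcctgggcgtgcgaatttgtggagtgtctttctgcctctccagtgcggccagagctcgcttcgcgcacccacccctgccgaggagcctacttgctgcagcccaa

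Of these 5 sequences, 3 held 1 match each. The second Meis1 region held the MEIS and PKNOX core on the minus strand (CTGTCA), a motif present in 16.9% of the 4253 windows of the same length around Ep300Δ/ΔTet2-/- H3K27ac summits outside promoters. The third Meis1 region held the ETS motif on the minus strand (CTTCCTG), which 14.6% of these windows held. The sequence upstream of Meis1 held the RUNX motif, which 11.6% of 32851 RefSeq promoters held in the same 200 bases. The RUNX motif was in 16.3% of the windows outside promoters, the GATA motif in 7.67%, the PBX-HOX motif in 1.36%, and the PBX-PKNOX motif in 0.235%. The first Meis1 region and the Pbx3 region held none of the 6 motifs, which says only that these letters are not in these windows. RefSeq promoters were found for 5 of the 7 genes, without Pbx3 and Pknox1.

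Over the whole series, the H3K27ac lists held 29659 peaks in WT, 22727 in Ep300Δ/Δ, 24539 in Tet2-/-, and 18327 in Ep300Δ/ΔTet2-/- cells. Sequencing depth cannot be read from these lists and is unknown here, and the number of peaks moves with it. The median coding gene had 3 H3K27ac peaks in its window in WT and 2 in each of the other genotypes. Of 7 progenitor marker genes, the promoters of 7, 7, 5, and 5 overlapped an H3K27ac peak in WT, Ep300Δ/Δ, Tet2-/-, and Ep300Δ/ΔTet2-/- cells, and their windows held 74, 54, 61, and 36 such peaks. Of 11 genes of T cells, B cells, granulocytes, erythroid cells, liver, neurons, islets, and muscle, the promoters of 2, 2, 1, and 0 did, with 36, 17, 16, and 14 peaks in their windows. The promoters of Cd3e, Ms4a1, Ly6g, Alb, Neurod1, Ins2, and Myod1 had no H3K27ac peak in any list. The Ep300 and Tet2 promoters had an H3K27ac and an H3K4me3 peak in all 4 genotypes; a peak list does not measure the deletion of an exon.

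Meis1, a gene known for its role in hematopoietic stem cell maintenance, lies on chromosome 11 (GRCm38, chr11:18879817-19018985, minus strand, ENSMUSG00000020160.18), and no other protein-coding gene overlaps its window of 239 kb. It held 3 H3K27ac peaks in WT, 12 in Ep300Δ/Δ, 7 in Tet2-/-, and 14 in Ep300Δ/ΔTet2-/- cells. Both libraries with Ep300 deleted were higher than both with Ep300 intact. The peaks covered 1.42 kb in WT, 5.57 kb in Ep300Δ/Δ, 5.16 kb in Tet2-/-, and 10.5 kb in Ep300Δ/ΔTet2-/- cells, which is 3.91 times the length with Ep300 deletion in the WT background and 2.03 times in the Tet2-/- background. Over all coding genes, the median change in covered length was -0.388 kb and -0.052 kb.

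**Figure D1:**
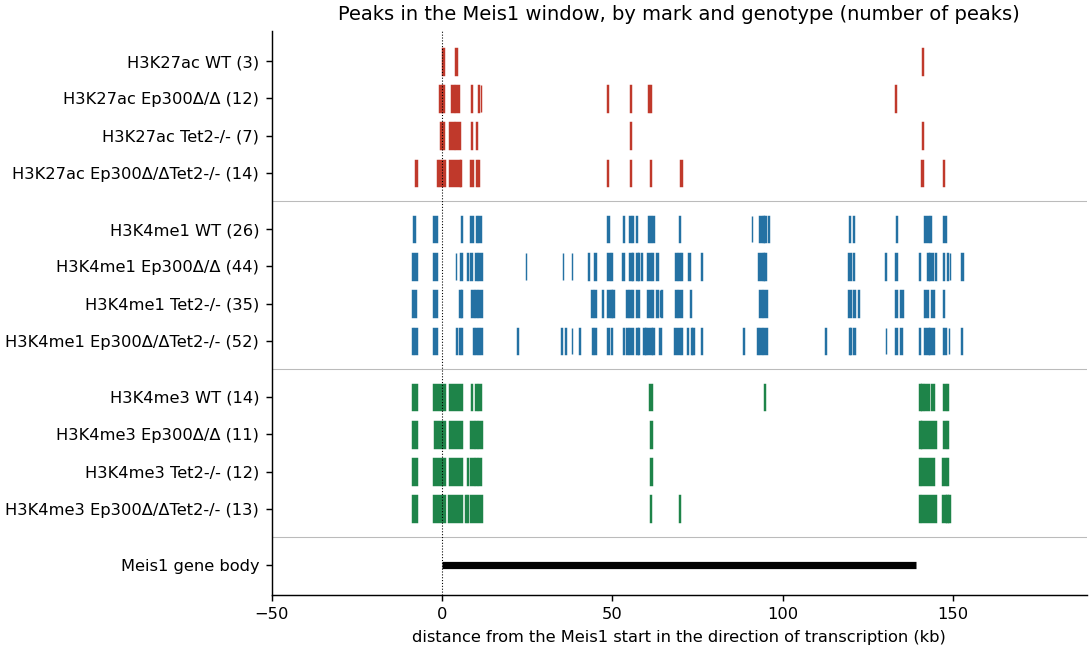
Peaks of the 12 lists in the Meis1 window, by distance from the Meis1 start in the direction of transcription (kb). Each bar is 1 peak, drawn with a minimum line width, the number of peaks is in parentheses, and the black bar is the gene body. H3K27ac peaks deep in the gene appear in Ep300Δ/Δ, Tet2-/-, and Ep300Δ/ΔTet2-/- rows and not in the WT row, while H3K4me1 peaks are there in all 4 rows.

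The change of Meis1 was set against that of all 21938 protein-coding genes, each with the same window. Meis1 had 9 more H3K27ac peaks in the WT background and 7 more in the Tet2-/- background, and no other coding gene had as large an increase in either. The same held for the covered length, where 4.14 kb and 5.31 kb more were the largest increases of all coding genes in each background. Of all coding genes, 3.25% had more H3K27ac peaks with Ep300 deleted in both backgrounds and 23.6% had fewer in both. Long windows can hold larger changes: per 100 kb of window, 49 genes, Meis1 among them, had at least the increase of Meis1 in the WT background and 27 in the Tet2-/- background. Many of the Meis1 peaks were weak. The median fold enrichment of the 12 peaks in Ep300Δ/Δ cells was at the 29.0 percentile of that list, and that of the 14 peaks in Ep300Δ/ΔTet2-/- cells at the 25.6 percentile of theirs. With only peaks of −log10 q of at least 5, Meis1 held 1, 4, 5, and 9 H3K27ac peaks in WT, Ep300Δ/Δ, Tet2-/-, and Ep300Δ/ΔTet2-/- cells. The increases of 3 and 4 were then reached by 52 and 8 genes in the single backgrounds, and by Meis1 alone in both. With lists of equal size, its increases of 6 and 10 were reached by 52 genes and by Meis1 alone. With a q under 0.05, its increases of 8 and 6 were reached by 4 and 3 genes, Meis1 among them.

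**Figure D2:**
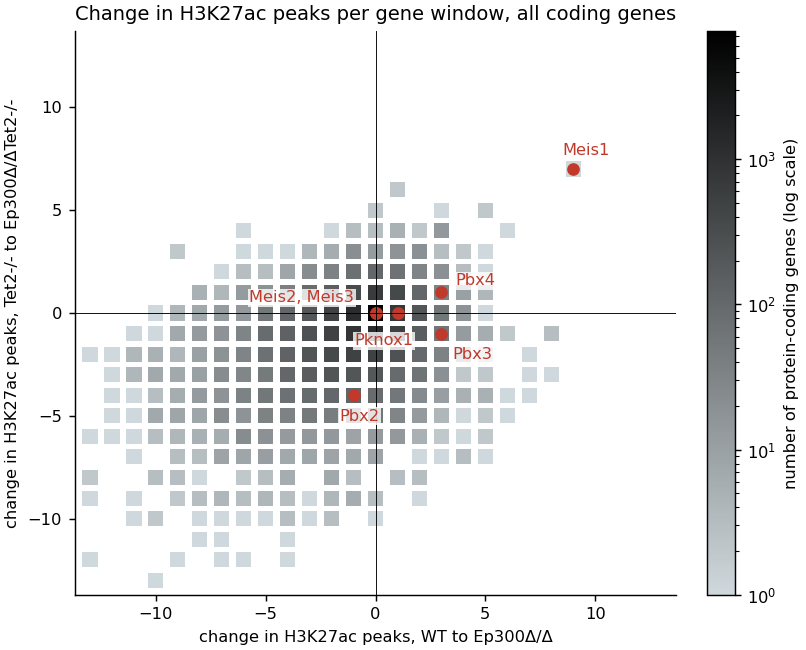
Change in the number of H3K27ac peaks per gene window from WT to Ep300Δ/Δ (x) and from Tet2-/- to Ep300Δ/ΔTet2-/- (y). Gray squares give the number of protein-coding genes with each pair of changes on a log color scale, red points are the 7 genes, and 19 genes lie outside the axes. Meis1, at 9 and 7, stands at the upper right beyond all other genes, and Meis2 and Meis3 sit at 0 and 0.

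To count regions, overlapping peaks of the libraries compared were joined. A joined region without a peak in the second library is called lost, and one without a peak in the first is called gained. From WT to Ep300Δ/Δ, Meis1 gained 10 of the 12 regions listed in Ep300Δ/Δ cells (83.3%, exact 95% interval 51.6% to 97.9%), against 12.8% of all Ep300Δ/Δ regions. It lost 1 of 3 regions, against 39.7% of all WT regions. From Tet2-/- to Ep300Δ/ΔTet2-/-, Meis1 gained 8 of 14 regions (57.1%, 28.9% to 82.3%), against 15.0% of all regions, and lost 0 of 6, against 37.8%. A count of 0 of 6 allows a share lost of up to 45.9%. These intervals cover counting error only. The 10 gained in the WT background became 3 with peaks of −log10 q of at least 5 and 6 with lists of equal size, and the 8 in the Tet2-/- background became 6 and 11. With regions within 500 bp counted as shared, they became 8 and 6. Among the 10, chr11:19015490-19016447 lay inside chr11:19013711-19017092, a region of the 4 lists merged that was listed in all 4 genotypes. Of the 10 regions gained in the WT background, 3 were also gained in the Tet2-/- background, which is 30% of the first list and 37.5% of the second, against 10.8% and 10.6% of all gained regions. Both shares rest on 3 regions, and whether they differ from those of all gained regions was not tested. These 3 were the regions at chr11:18957567-18958066, chr11:18970235-18970612, and chr11:19008057-19008485.

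With the 4 lists merged, Meis1 had 17 H3K27ac regions. Of these, 11 (64.7%) were listed only in libraries with Ep300 deleted, against 7.90% of the 35252 merged regions of the genome. Of the 11, 3 were listed in both of these libraries, 3 in Ep300Δ/Δ only, and 5 in Ep300Δ/ΔTet2-/- only. None of the 17 was listed only in libraries with Ep300 intact, against 37.1% of the genome. Of the 17, 14 were absent from WT.

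The 3 intronic regions whose sequences are shown lay 61.2, 55.3, and 48.6 kb downstream of the Meis1 start. The first had H3K27ac in Ep300Δ/Δ (fold enrichment over the H3 library 6.64, 56.7 percentile of the list) and Ep300Δ/ΔTet2-/- cells (6.52, 45.7 percentile) and in neither library with Ep300 intact. The third had the same pattern, at 5.82 (49.2 percentile) and 6.75 (47.9 percentile). The second was listed in Ep300Δ/Δ (4.82, 35.9 percentile), Tet2-/- (6.76, 51.7 percentile), and Ep300Δ/ΔTet2-/- cells (2.73, 1.24 percentile), where it was among the weakest peaks of the list. All 3 regions carried H3K4me1 in all 4 genotypes, and the first also carried H3K4me3 in all 4. Another intronic region, at chr11:18948710-18949070, had H3K27ac in Ep300Δ/ΔTet2-/- cells only (4.31 percentile) and H3K4me1 in every genotype but WT. One more, at chr11:18958154-18958445, beside the first, was listed in Ep300Δ/Δ cells only (27.9 percentile). Upstream of the gene, the region at chr11:19026478-19027029 was listed in Ep300Δ/ΔTet2-/- cells only (7.07 percentile), with H3K4me1 and H3K4me3 there in all 4 genotypes.

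At the start of Meis1, the region at chr11:19018120-19019885 had H3K27ac in all 4 genotypes. It stood at the 9.62 percentile of the WT list, the 29.97 percentile of Ep300Δ/Δ, the 72.8 percentile of Tet2-/-, and the 77.2 percentile of Ep300Δ/ΔTet2-/-. The WT peak there was 573 bp wide and did not reach the upstream sequence shown, which overlapped an H3K27ac peak in the other 3 lists; in Ep300Δ/Δ this peak was weak, at the 1.12 percentile. The region at chr11:19013711-19017092, within 3000 bp of other Meis1 transcript starts and of the noncoding gene Gm16141, stood at the 39.3, 84.6, 35.6, and 93.2 percentiles of the WT, Ep300Δ/Δ, Tet2-/-, and Ep300Δ/ΔTet2-/- lists. These places are within lists of different length and are not amounts. Beyond the gene's end, the region at chr11:18877845-18878340 was listed in all genotypes but Ep300Δ/Δ, and it was the only region that Meis1 lost with Ep300 deletion. Close to it, the promoter of the noncoding gene 8430419K02Rik had H3K27ac in Ep300Δ/ΔTet2-/- cells only. Within the gene, the promoter of the noncoding Gm37818 had it in Ep300Δ/Δ cells only, and the promoters of the noncoding 2610001A08Rik and Gm16140 overlapped regions gained in both backgrounds.

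H3K4me1 at Meis1 followed the order of H3K27ac, with 26 peaks in WT, 44 in Ep300Δ/Δ, 35 in Tet2-/-, and 52 in Ep300Δ/ΔTet2-/- cells. In the WT background, 18 more peaks was the largest increase of all coding genes, and in the Tet2-/- background 3 genes, Meis1 among them, had at least 17 more. Per 100 kb of window, 11 and 77 genes, Meis1 among them, had at least its increase, and by covered length 2 and 8 did. Of all coding genes, 11.1% had more H3K4me1 peaks in both backgrounds. Meis1 gained 21 of 44 H3K4me1 regions (47.7%, 32.5% to 63.3%) in the WT background, against 24.1% of all regions, and lost 2 of 25 (8%), against 36.7%. In the Tet2-/- background it gained 19 of 46 (41.3%, 27% to 56.8%), against 23.4%, and lost 4 of 31 (12.9%), against 31.1%. Of 60 H3K4me1 regions with the 4 lists merged, 26 (43.3%) were listed only with Ep300 deleted, against 14.1% of the genome, and 5 (8.33%) only with Ep300 intact, against 25.6%. Of the 26, 7 were listed in both libraries with Ep300 deleted, 8 in Ep300Δ/Δ only, and 11 in Ep300Δ/ΔTet2-/- only. With peaks of −log10 q of at least 5, the increase in the Tet2-/- background was 1 peak, from 28 to 29.

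Most H3K27ac regions gained at Meis1, as most of those gained over the genome, lay where H3K4me1 was already listed with Ep300 intact. Of the 10 gained in the WT background, 8 overlapped an H3K4me1 peak and 7 an H3K4me3 peak of WT cells, as did 64.8% and 54.0% of all regions gained there. Of the 8 gained in the Tet2-/- background, all 8 overlapped an H3K4me1 peak and 6 an H3K4me3 peak of Tet2-/- cells, as did 64.0% and 51.8% of all regions gained there. Active enhancers were taken as H3K27ac peaks more than 3000 bp away from any transcript start that also carried H3K4me1 in that genotype. Meis1 had 0 in WT, 4 in Ep300Δ/Δ, 1 in Tet2-/-, and 5 in Ep300Δ/ΔTet2-/- cells. With a distance of 1000 bp from transcript starts it had 0, 7, 2, and 5. Numbers of active enhancers over all coding genes are not given here, so these counts have no genome-wide value beside them.

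H3K4me3 peaks at Meis1 were similar in number and wider with Ep300 deleted. There were 14 peaks in WT, 11 in Ep300Δ/Δ, 12 in Tet2-/-, and 13 in Ep300Δ/ΔTet2-/- cells, and 9 of 14 merged regions were in all 4 genotypes. The covered length was 15.6, 17.95, 17.9, and 20.6 kb, so that fewer and wider peaks were listed in Ep300Δ/Δ than in WT cells. The increases of 2.36 kb and 2.69 kb with Ep300 deleted were reached by 13 and 9 coding genes, Meis1 among them, and by 8 in both backgrounds. A longer H3K4me3 cover in both backgrounds was found at 12.5% of all coding genes, and more H3K4me3 peaks in both, which Meis1 did not have, at 6.67%.

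More H3K27ac peaks were also listed at Meis1 in Tet2-/- than in WT cells, 7 against 3. From WT to Tet2-/-, Meis1 gained 4 of 7 regions (57.1%, 18.4% to 90.1%) and lost 0 of 3 (0 to 70.8%). These intervals held the 20.3% of all Tet2-/- regions gained and the 35.6% of all WT regions lost. From Ep300Δ/Δ to Ep300Δ/ΔTet2-/-, Meis1 gained 7 of 14 (50%, 23% to 77%) and lost 3 of 10 (30%, 6.67% to 65.2%). Over all regions, 18.5% were gained and 31.2% lost there.

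**Figure D3:**
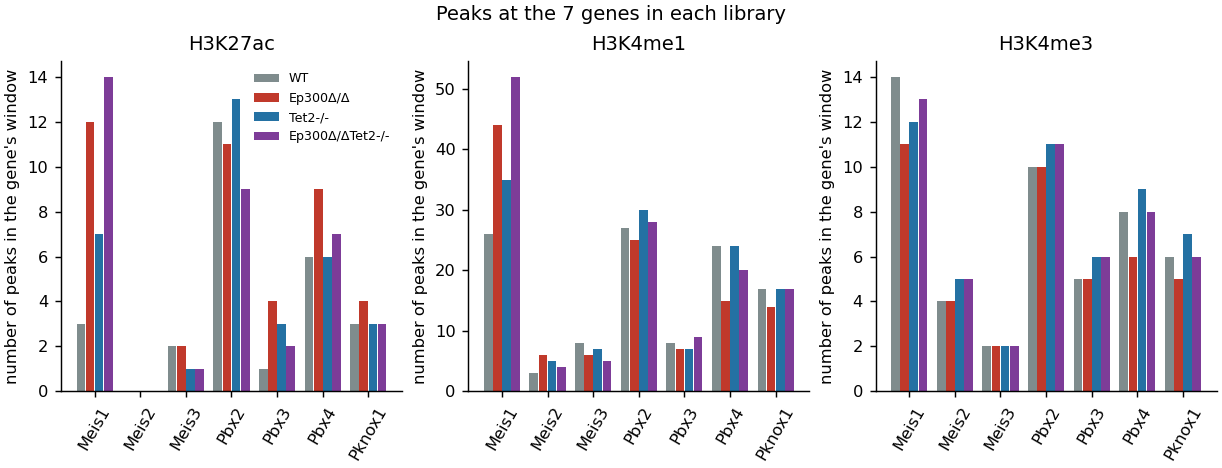
Number of H3K27ac, H3K4me1, and H3K4me3 peaks in the window of each of the 7 genes (y) in the library of each genotype (bar colors). Each bar is 1 library, without an error. Meis1 has the tallest H3K4me1 bars, with 44 and 52 peaks in the libraries with Ep300 deleted, and Meis2 has no H3K27ac bar.

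The other 2 MEIS genes had no H3K27ac peak at their own promoters. Meis2, a gene of limb, heart, and neural development, on chromosome 2 (chr2:115863064-116065839, minus strand), had no H3K27ac peak in any genotype, as did 25.6% of all coding genes. Its promoter had H3K4me3 in all 4 lists, at the 51.9, 51.6, 63.9, and 56.0 percentiles of the WT, Ep300Δ/Δ, Tet2-/-, and Ep300Δ/ΔTet2-/- lists. It held 3, 6, 5, and 4 H3K4me1 peaks, in the same order. Meis3, on chromosome 7 (chr7:16175090-16186504, plus strand), had H3K4me3 at its own promoter in all 4 lists and H3K27ac at its own promoter in none. Its window held 2, 2, 1, and 1 H3K27ac peaks. One of them lay at the promoter of the neighboring helicase gene Dhx34 in all 4 genotypes. The other, in an intron of Dhx34 at chr7:16207316-16207566, was listed in WT and Ep300Δ/Δ cells only, as was H3K4me1 there.

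Pbx3, the PBX gene that is often coexpressed with HOXA9 and MEIS1 in leukemia, lies on chromosome 2 (chr2:34171457-34373142, minus strand). Its promoter carried strong H3K4me3, at the 89.2, 84.2, 88.1, and 97.8 percentiles of the WT, Ep300Δ/Δ, Tet2-/-, and Ep300Δ/ΔTet2-/- lists, in a region 3299 bp wide. H3K27ac at this promoter was listed in Ep300Δ/Δ cells only, as a peak of 189 bp at the 19.5 percentile. The intronic region whose sequence is shown, chr2:34359423-34360691, lay 13.1 kb downstream of the start. It had no H3K27ac in WT cells and stood at the 46.6 percentile in Ep300Δ/Δ, the 65.5 percentile in Tet2-/-, and the 76.8 percentile in Ep300Δ/ΔTet2-/- cells. H3K4me1 and H3K4me3 were there in all 4 genotypes. The window held 1, 4, 3, and 2 H3K27ac peaks, 1 of them at the promoter of the neighboring gene Mapkap1 in every genotype. In the WT background, Pbx3 gained 3 of 4 regions, 2 of them within that intronic region, and in the Tet2-/- background it gained 0 of 2, where 12.8% and 15.0% of all regions were gained. With peaks of −log10 q of at least 5, the counts were 1, 1, 2, and 2, with no change in either background.

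**Figure D4:**
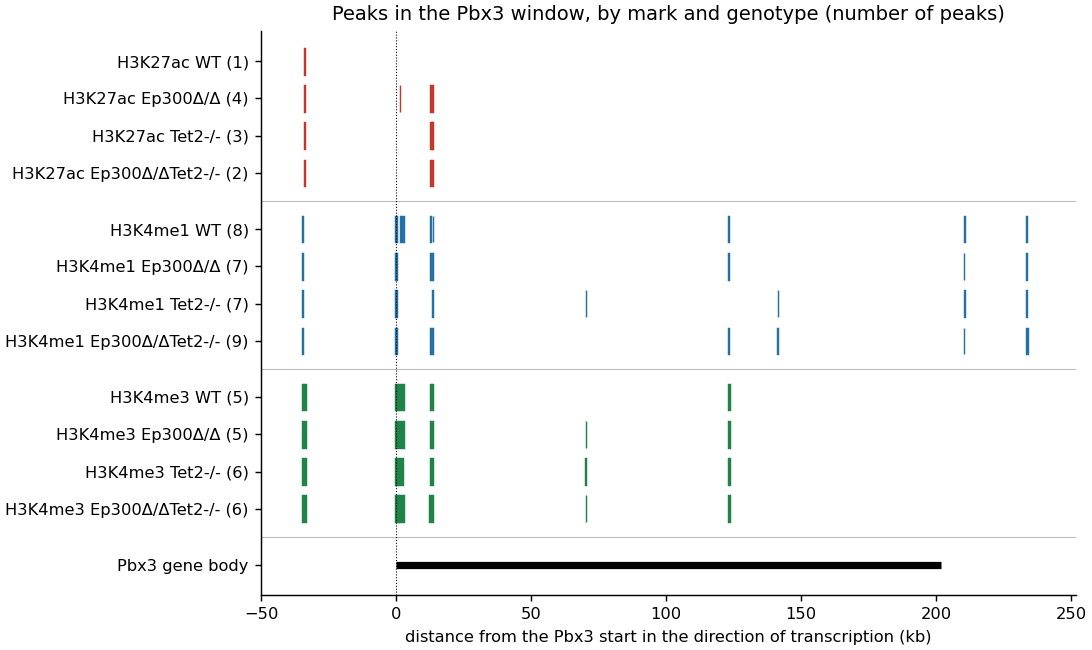
Peaks of the 12 lists in the Pbx3 window, by distance from the Pbx3 start in the direction of transcription (kb). Each bar is 1 peak, drawn with a minimum line width, the number of peaks is in parentheses, and the black bar is the gene body. The H3K27ac peaks 13.1 kb into the gene are missing in the WT row only, and the bars 34.1 kb upstream are at the Mapkap1 promoter.

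Pbx2 and Pbx4 lie in gene-dense regions. The window of Pbx2, on chromosome 17 (chr17:34591266-34597400, plus strand), overlapped 10 other protein-coding genes, and that of Pbx4, on chromosome 8 (chr8:69832491-69872292, plus strand), 9. Of the 14 H3K27ac regions at Pbx2 with the 4 lists merged, 9 lay at promoters of other genes, among them Agpat1, Rnf5, Ppt2, Atf6b, and Fkbpl, and 3 at its own. The region at the Pbx2 start, chr17:34591196-34592123, stood at the 66.4 percentile in WT, the 50.7 percentile in Ep300Δ/Δ, and the 8.17 percentile in Tet2-/- cells, and was not listed in Ep300Δ/ΔTet2-/- cells. A second own-promoter region, at chr17:34589318-34590858 and shared with Gpsm3 and Notch4, was listed in all 4 genotypes. Pbx2 lost 4 of 12 H3K27ac regions and gained 0 of 8 in the WT background, and lost 5 of 13 and gained 1 of 9 in the Tet2-/- background. These losses, 33.3% and 38.5%, stood close to the 39.7% and 37.8% of all regions that were lost, and the intervals of the gains (0 to 36.9% and 0.281% to 48.2%) held the 12.8% and 15.0% of all regions gained. The lost regions lay at promoters of Gpsm3 and Notch4, of Agpat1 and Rnf5, and of Atf6b and Fkbpl, at the start of Pbx2, and in the flank, and the gained one, at the Prrt1 promoter, was among the weakest of its list (0.218 percentile). In the flank, the region at chr17:34639809-34640377 stood at the 71.1 percentile in WT, the 37.3 percentile in Tet2-/-, and the 1.05 percentile in Ep300Δ/ΔTet2-/- cells and was not listed in Ep300Δ/Δ cells, and its neighbor chr17:34639222-34639554 was listed in WT cells only. The H3K27ac peaks at Pbx2 covered 9.004 kb in WT, 6.27 kb in Ep300Δ/Δ, 7.33 kb in Tet2-/-, and 5.33 kb in Ep300Δ/ΔTet2-/- cells, lower in both libraries with Ep300 deleted than in both with Ep300 intact.

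Pbx4 had more H3K27ac peaks over a shorter length with Ep300 deleted. The number was 6 in WT, 9 in Ep300Δ/Δ, 6 in Tet2-/-, and 7 in Ep300Δ/ΔTet2-/- cells, and the covered length 7.28, 4.20, 6.87, and 3.75 kb. In each background 0 of 5 regions were gained and 1 of 6 was lost, counts whose intervals (up to 52.2% and 64.1%) hold the 12.8% and 15.0% gained and the 39.7% and 37.8% lost over all regions, so the higher counts came from retained regions listed as several peaks. At the Pbx4 promoter, chr8:69832292-69833174, H3K27ac was listed in all 4 genotypes, at the 34.5, 27.6, 79.3, and 21.7 percentiles of the WT, Ep300Δ/Δ, Tet2-/-, and Ep300Δ/ΔTet2-/- lists. In an intron of the neighboring gene Gatad2a, the region at chr8:69919836-69921884 was also listed in all 4, at the 88.3, 79.1, 82.2, and 72.7 percentiles, and that at chr8:69919276-69919665 in WT cells only. H3K4me1 peaks at Pbx4 numbered 24, 15, 24, and 20 in the same order.

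Pknox1, which encodes the MEIS-related protein PREP1, lies on chromosome 17 (chr17:31564734-31607693, plus strand) and had the strongest own-promoter H3K27ac of the 7 genes. The region at chr17:31563633-31564495 stood at the 99.0 percentile in WT, the 86.7 percentile in Ep300Δ/Δ, the 99.0 percentile in Tet2-/-, and the 97.3 percentile in Ep300Δ/ΔTet2-/- cells. A second own-promoter region, chr17:31565355-31566249, stood at the 72.3, 48.7, 62.6, and 10.2 percentiles. Both were present in all 4 genotypes. Pknox1 lost 0 of 3 H3K27ac regions in each background, which allows up to 70.8% and so includes the 39.7% and 37.8% of all regions lost. It gained 1 of 4 in the WT background, at the promoter shared by Ndufv3 and Wdr4, and 0 of 3 in the Tet2-/- background, where 12.8% and 15.0% of all regions were gained. Pknox1 had no active enhancer in any genotype.

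The other genes had 0 to 2 active enhancers each, also without a value over all coding genes. In WT, Ep300Δ/Δ, Tet2-/-, and Ep300Δ/ΔTet2-/- cells, Pbx3 had 0, 2, 1, and 1, Pbx2 had 2, 0, 1, and 1, Pbx4 had 2, 2, 1, and 1, and Meis3 had 1, 1, 0, and 0. Meis2 had none.

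Together, the 7 genes gained 14 of 35 H3K27ac regions (40%, 23.9% to 57.9%) and lost 6 of 27 (22.2%, 8.62% to 42.3%) from WT to Ep300Δ/Δ. From Tet2-/- to Ep300Δ/ΔTet2-/- they gained 9 of 34 (26.5%, 12.9% to 44.4%) and lost 6 of 31 (19.4%, 7.45% to 37.5%). Over all regions, 12.8% and 15.0% were gained and 39.7% and 37.8% lost. The interval of the lost share held the share of all regions in the WT background, and its upper bound lay just under it in the Tet2-/- background. Meis1 accounted for most gains. Without it, the 6 other genes gained 4 of 23 (17.4%, 4.95% to 38.8%) and 1 of 20 (5%, 0.127% to 24.9%) and lost 5 of 24 (20.8%) and 6 of 25 (24%), and the intervals for gain held the shares of the whole lists. For H3K4me3, the 7 genes lost 5 of 46 and gained 2 of 43 regions in the WT background, where 15.4% of all regions were lost and 11.1% gained. They lost 5 of 48 and gained 7 of 50 in the Tet2-/- background, where 13.3% were lost and 9.45% gained.

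**Figure D5:**
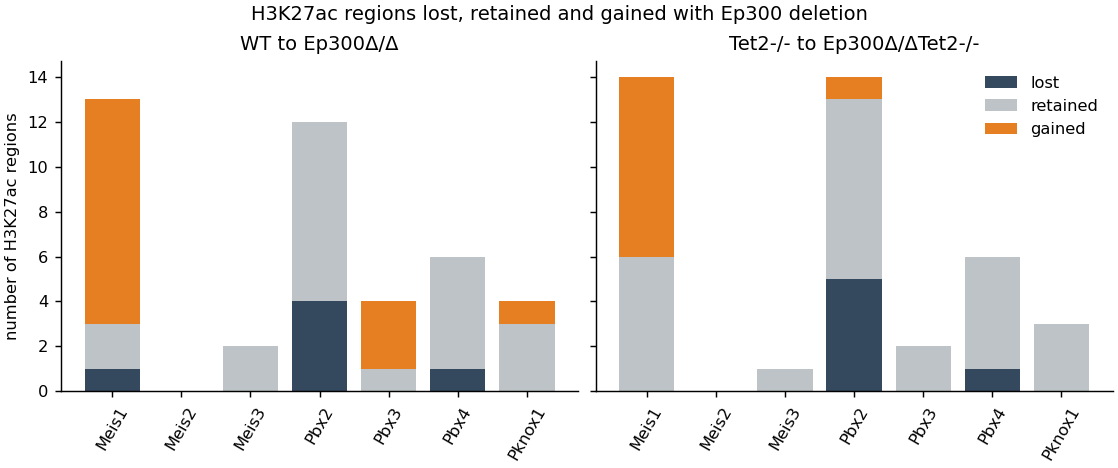
Number of H3K27ac regions (y) lost, retained, and gained with Ep300 deletion at each of the 7 genes, from WT to Ep300Δ/Δ (left) and from Tet2-/- to Ep300Δ/ΔTet2-/- (right). Gained regions stand mostly at Meis1, with 10 and 8, and lost regions mostly at Pbx2, with 4 and 5.

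Genes related to these cofactors were read in windows of the same kind. Of all coding genes, 15.2% had more and 37.2% fewer H3K27ac peaks with Ep300 deleted in the WT background, and 10.6% had more and 40.3% fewer in the Tet2-/- background. The 8 HOX partner genes Hoxa5, Hoxa7, Hoxa9, Hoxa10, Hoxb2, Hoxb3, Hoxb4, and Hoxb5 all had more H3K27ac peaks with Ep300 deleted in both backgrounds, against 3.25% of all coding genes, but they stand for 2 clusters only. The 4 Hoxa genes shared the same 7, 10, 3, and 7 peaks in WT, Ep300Δ/Δ, Tet2-/-, and Ep300Δ/ΔTet2-/- cells, and the 4 Hoxb genes the same 2, 4, 2, and 4. Counted by regions, the Hoxa genes gained 5 and lost 2 in the WT background, and gained 4 and lost 0 in the Tet2-/- background. The Hoxb genes gained 1 and lost 0, and gained 3 and lost 1. Of the 5 related TALE genes Tgif1, Tgif2, Irx3, and Irx5 and the PBX-interacting Pbxip1, none had more H3K27ac peaks in either background and 2 had fewer in each. Pbxip1 held 12, 5, 11, and 4. Of 8 genes known as targets of MEIS1 or as stem and progenitor genes, 6 had fewer H3K27ac peaks and none more in the WT background, and 7 had fewer and 1, Myb, had more in the Tet2-/- background. Flt3, a receptor gene of early progenitors that MEIS1 is known to act on, held 24, 19, 20, and 11, and Erg, a stem cell ETS factor gene, 21, 14, 10, and 7. Of the 7 progenitor marker genes, 6 had fewer in the WT background and 5 in the Tet2-/- background, with Gata2 at 8, 2, 12, and 0 peaks. Mpo, a gene of myeloid progenitors, had more peaks in both, with 11, 12, 9, and 10. Counted by regions, Mpo lost 2 and gained 1 in each background. The part of a changed makeup of the Lin- cells in the Meis1 counts was not tested.

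By the Euclidean distance between log2(count + 1) over the 12 lists, the coding genes whose pattern was most like that of Meis1 were Unk (distance 1.48) and Ambra1 (1.73), among 21891 genes outside the 7 windows. Unk held 6, 10, 9, and 8 H3K27ac peaks. For the other 6 genes the nearest gene was at 0.440 to 0.702, so that Meis1 had the most distant nearest gene of the 7. Pbx2 was nearest to Prx and Cdt1, Pbx3 to Nudt2 and AI464131, Pbx4 to Rfx7 and Cnpy4, Pknox1 to Mocs3 and Mycl, Meis2 to Cxxc4 and Bmpr1a, and Meis3 to 4933408B17Rik and Ghrh.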

How the data were processed

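ChIP-Seq libraries for H3K27ac, H3K4me1, and H3K4me3 were made from Lin- cells with 5 µg of chromatin, 1 µg of antibody, and 10 ng of Drosophila spike-in chromatin. Per the submitters' processing notes and methods, the authors used Cutadapt 1.15 for trimming and BWA 0.7.13 for alignment to mm10, removed duplicates with Picard, and called narrow peaks with MACS2 2.1.1.20160309 against H3, keeping peaks found in pseudo-replicates at a stated q under 0.05. The labels give single-end and the methods paired-end reads. The deposited lists hold for each peak a score, a fold enrichment ratio over H3, the −log10 p and q values, and the summit offset. In the deposited H3K27ac lists, 0.900%, 7.17%, 0.811%, and 0.780% of peaks (WT, Ep300Δ/Δ, Tet2-/-, Ep300Δ/ΔTet2-/-) had a q over 0.05. A list depends on depth and yield, and a region just under the threshold counts as absent. Fold values were placed by their percentile within a list and not compared between lists, and scores were not used. Of 20 samples, the 8 for H3 and H3K27me3 were not analysed here.

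Peaks were given to genes by GENCODE release M21 on GRCm38 (50 kb flanks). Promoters reached 3000 bp to each side of transcript starts. Lists were compared with at least 1 bp of overlap, and counts were tested on simulated lists against bedtools 2.31.1, which gave equal counts in 10 of 10 runs. Shares carry exact Clopper-Pearson 95% intervals. Sequences were read from GRCm38.p6 and RefSeq promoters with pysam 0.24.0; tables were made with Python 3.11.15, numpy 2.4.6, pandas 2.3.3, and scipy 1.17.1. The text names the 7 genes, genes whose promoters overlap a changed H3K27ac region, regions outside promoters one by one at Meis1 and Pbx3 and the strongest elsewhere, nearest-pattern genes, and listed partner, target, and marker genes. The genes, lists, and motifs were chosen with earlier results of these data known. Alternatives were other overlap rules, thresholds, equal list sizes, windows of 20 and 100 kb, the nearest coding start, and promoters of 1000 bp. The sets without Meis1, the q under 0.05, and the all-gene comparison under other settings were added after seeing the data.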

Additional observations from a re-analysis of the deposited data

Results flagged for a closer look

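In 4 cases the number of peaks at a gene moved one way with Ep300 deletion in the WT background and the other way in the Tet2-/- background. With 1 library per group, none of these differences was tested. The change in Pbx3 H3K27ac peaks was 3 (1 in WT, 4 in Ep300Δ/Δ) and -1 (3 in Tet2-/-, 2 in Ep300Δ/ΔTet2-/-), where the intronic region was listed as 2 peaks in Ep300Δ/Δ and Tet2-/- cells and as 1 in Ep300Δ/ΔTet2-/- cells. The change in Pbx3 H3K4me1 peaks was -1 (8 to 7) and 2 (7 to 9). The change in Meis2 H3K4me1 peaks was 3 (3 to 6) and -1 (5 to 4). The change in Meis1 H3K4me3 peaks was -3 (14 to 11) and 1 (12 to 13), while the covered length was larger in both libraries with Ep300 deleted.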

How the results depend on the processing

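The numbers of H3K27ac regions gained and lost with Ep300 deletion over the 7 genes stayed within 1.5 times the reported value when an overlap of at least 50% was asked for or when regions within 500 bp counted as shared. In the WT background, the 14 gained regions became 5 with peaks of −log10 q of at least 5 and 8 with lists cut to equal size. The 6 lost regions there became 3 with flanks of 20 kb, 13 with 100 kb, and 1 with each peak given to the nearest coding start. In the Tet2-/- background, the 9 gained regions ranged from 6 to 12, and the 6 lost became 3 with lists of equal size and 2 with the nearest coding start. The flank settings count over narrower or wider windows by construction, and the cause of the other differences was not tested. Of the 84 numbers of peaks per gene, mark, and library, 27 moved with the stricter threshold and 8 with equal sizes, and of 28 numbers of active enhancers 4 moved with promoters of 1000 bp. Meis1 had more H3K27ac peaks with Ep300 deleted in both backgrounds in each of 3 other settings: 3 and 4 more with −log10 q of at least 5, 6 and 10 more with equal sizes, and 8 and 6 more with a q under 0.05, a setting added after seeing the data. No other coding gene had as many more in both backgrounds in any of these. In single backgrounds other genes did: 52 genes in the WT background with equal sizes, and 4 and 3 with a q under 0.05, Meis1 among them.

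No paired analysis was possible because each genotype had 1 library per mark and the groups shared only that number. Leaving out a library was not run, since no group would remain.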
